A study of Sus scrofa with 21 samples.

Results

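The genes described are those of cytosolic ribosomal proteins, measured in sow endometrium on porcine Agilent arrays. They were chosen by symbol: RPL or RPS followed by a digit, with the kinases of ribosomal protein S6 left out, plus RPLP0 to RPLP2 and RPSA, where a probe carried a RefSeq accession of the gene. This gave 32 genes of the 2389 that could be named on the array, 18 named for the large and 14 for the small ribosomal subunit. RPL7L1 is among the 18 by its symbol, though its yeast relative Rlp7 takes part in assembly of the large subunit. They were hit by 176 probes of 43603, and the probe with the highest mean signal over the 21 arrays stood for each gene. The choice used names and mean signal and no difference between groups. Of all 32 members, RPL7L1 alone changed at an adjusted p under 0.05 in any of 11 comparisons: it fell at day 13 attachment sites relative to non-pregnant endometrium and was higher again at day 24 attachment sites. Each call is 1 of 32 members (3.12%), against 1.79% of all probes tested for the fall and 15.7% for the rise. The call of the rise held in 34 of 35 other settings, and that of the fall in 12 of 35. Of these settings 21 leave out 1 array and do not change the processing. The rise was not called with normexp background correction (log2 change 0.37).

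The cytosolic ribosome makes all proteins encoded in the nucleus. Its small subunit reads the messenger RNA and its large subunit joins the amino acids, and each subunit is a scaffold of ribosomal RNA to which its proteins are bound in nearly equal number. Their messenger RNAs are among the most abundant of a cell and share a pyrimidine tract at the 5′ end through which growth signals set their translation, so that protein output and messenger RNA level can part. In the pig, the conceptus elongates and attaches to the uterine lining in the weeks after fertilization, a time of heavy secretion by the endometrium, and several members, among them RPLP0, RPL32 and RPS18, are in common use as reference genes for quantitative PCR.

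The tissue came from Large White sows. The pregnant sows had been inseminated on 2 occasions and were killed on day 13, 18 or 24, with 3 sows for each day. Each gave endometrium from attachment sites (AS13, AS18 and AS24) and from the stretches between them, the inter-sites (IS13, IS18 and IS24). The 3 control sows (NP, non-pregnant) had been given inactivated sperm of the same boar and were killed on day 13, so day 18 and day 24 have no non-pregnant control. Each of the 7 groups held 3 arrays. The labels do not say which arrays share a sow, and p-values measure only the spread between these samples. In whole endometrium, fewer cells of a type and less RNA per cell cannot be told apart.

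Levels are on the log2 scale, with the 75th percentile of each array set to 0, and a difference of 1 is a doubling. Of all probes, 30094 were tested, and 3 facts about the libraries touch the results. NP replicate 3 and IS24 replicate 3 correlated at 0.988 over all probes, against 0.946 and 0.947 between NP replicate 3 and the other non-pregnant arrays. IS13 replicate 1 and IS24 replicate 3 stood apart from their groups: the progesterone receptor PGR was at 2.15 in IS13 replicate 1 against 1.16 and 1.20, and at 3.03 in IS24 replicate 3 against 1.25 and 1.38. For each comparison that these libraries enter, the members' median is also given without them. The chosen probes of 29 members were bright enough on all 21 arrays to be read from the scanner's low-gain scan, whose signal the software scales up; RPL26L1 was read from it on 0 arrays, RPL7L1 on 1 and RPS16 on 18.

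All 32 members stood clear of the background on each of the 21 arrays, 0 of their spots were saturated, and each was tested. Each member's level was set against its own mean over the arrays, since levels of different probes cannot be compared. The median of the members then lay between -0.33 and 0.35 on the 21 arrays. It was 0.20, 0.12 and 0.35 on the 3 NP arrays, -0.06, 0.02 and 0.06 on AS13, and 0.07, -0.19 and 0.04 on IS13. All 3 NP arrays were thus above all 6 pregnant arrays of day 13. On day 18 the medians were -0.30, 0.24 and -0.00 at attachment sites and -0.09, -0.33 and -0.09 at inter-sites. On day 24 they were -0.28, 0.06 and -0.02 at attachment sites and -0.16, 0.00 and 0.33 at inter-sites. The spread within a group was widest in AS18 and IS24, whose arrays overlapped those of all other groups.

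**Figure D1:**
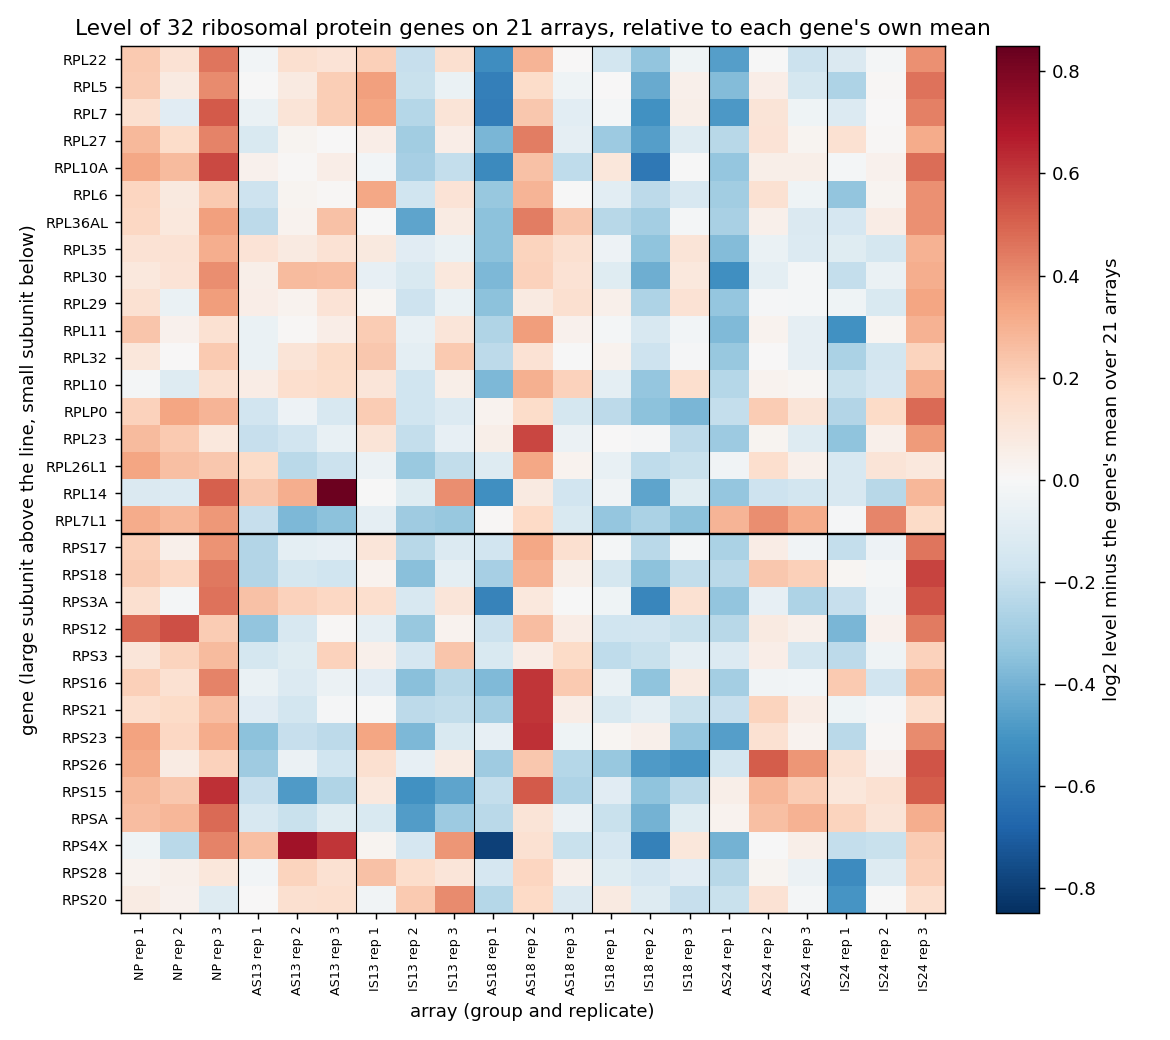
Level of the 32 members (rows) on the 21 arrays (columns, grouped by the 7 groups), as log2 level minus the gene's own mean over 21 arrays, red above and blue below. Whole columns are red (AS18 replicate 2, IS24 replicate 3, NP replicate 3) or blue (AS18 replicate 1, IS18 replicate 2), while RPL7L1, RPL14, RPS4X and RPS20 depart from their columns.

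The members moved together from array to array. Of the 496 pairs of members, 485 had a positive correlation over the 21 arrays, with a median Pearson r of 0.63, and the first principal component held 59.7% of their variance. These arrays include all groups, share their scaling step and were not a test. The median SD of a member over the arrays was 0.25, and it was 0.15 once the median of the other members had been taken out. RPL22, which binds RNA at the surface of the large subunit, followed the median of the others most closely (r = 0.94). RPL5, which carries 5S ribosomal RNA into the large subunit, and RPL7 came next (both r = 0.90). RPL7L1 (r = 0.37), RPS20 (r = 0.39) and RPL14 (r = 0.59) followed it least. The 430 probes of other genes that were also read from the low-gain scan on all arrays had a median that correlated with that of the members at r = 0.65 (Spearman 0.66, n = 21 arrays); its part in the members' common course was not tested.

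**Figure D2:**
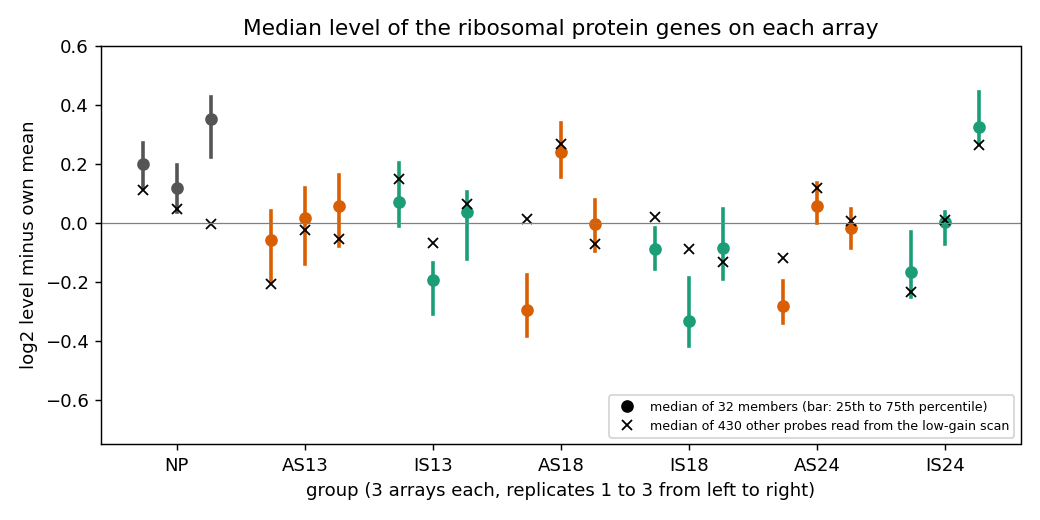
Median log2 level of the 32 members relative to their own means on each array (dots, with the 25th to 75th percentile over members as bars), and the same median for 430 other probes read from the low-gain scan (crosses), by group with 3 arrays each. The members run from -0.33 on IS18 replicate 2 to 0.35 on NP replicate 3, and on NP replicate 3 the other bright probes sit at -0.00.

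How far the groups differed varied by member. RPS4X, the X-linked form of a small-subunit protein, had the widest range of group means (0.81, AS13 highest and AS18 lowest), followed by RPS15 (0.69, NP highest and AS13 lowest) and RPS26 (0.68, AS24 highest and IS18 lowest). RPL10, a late addition to the large subunit close to its catalytic centre, had the narrowest range, 0.21, then RPL32 and RPL29 with 0.26 each. RPL10 was at 8.11, 8.02 and 8.27 on the NP arrays and at 8.19, 8.28 and 8.29 on AS13. At inter-sites of day 13 it was at 8.24, 7.96 and 8.18, which overlaps both. The group with the highest mean was NP for 23 of the 32 members, AS13 for 4, IS13 for 3 and AS24 for 2.

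The first question of the design is how pregnancy on day 13 changes the endometrium. At attachment sites 26 of 32 members had a lower mean than in NP and 6 a higher mean, with a median log2 difference of -0.21 against -0.06 over all probes tested. By limma with Benjamini-Hochberg adjustment over all probes, 1 member passed the test, RPL7L1, against 1.79% of all probes. At an unadjusted p under 0.05 stood 7 members (21.9%), and 20.3% of all probes. The 3 AS13 arrays lay wholly below the 3 NP arrays for 17 members (53.1%) and wholly above for 0; 31.1% of all probes had groups that did not overlap in either direction. The small-subunit members had a median of -0.33 and the large-subunit members of -0.16.

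RPL7L1 is a relative of RPL7 and of the yeast protein Rlp7, which takes part in assembly of the large subunit. On the NP arrays it was at 5.02, 4.99 and 5.08, and on AS13 at 4.51, 4.32 and 4.36. The 2 groups did not overlap. Its mean fell from 5.03 ± 0.04 (SD, n = 3) to 4.40 ± 0.10, a log2 change of -0.63 ± 0.15 (SE), or 0.645-fold (95% interval -0.95 to -0.31; limma, adjusted p = 0.0436). Its inter-site values on day 13 were 4.63, 4.40 and 4.38, also all below NP, with a log2 difference of -0.56 ± 0.15 (limma, adjusted p = 0.0864). The call at attachment sites did not hold in 23 of 35 other settings, where the adjusted p ran up to 0.553, among them 13 of the 21 fits that leave out 1 array. It was lost without any 1 array of NP or AS13 (log2 change -0.69 to -0.60; adjusted p from 0.0731 without NP replicate 3 to 0.144 without AS13 replicate 2, limma), and also without AS18 replicate 1 or any 1 array of IS18 or AS24, which enter only the estimate of spread and the adjustment (adjusted p from 0.0502 to 0.0652). The direction was the same in all 35, with a log2 change between -0.69 and -0.42.

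**Figure D3:**
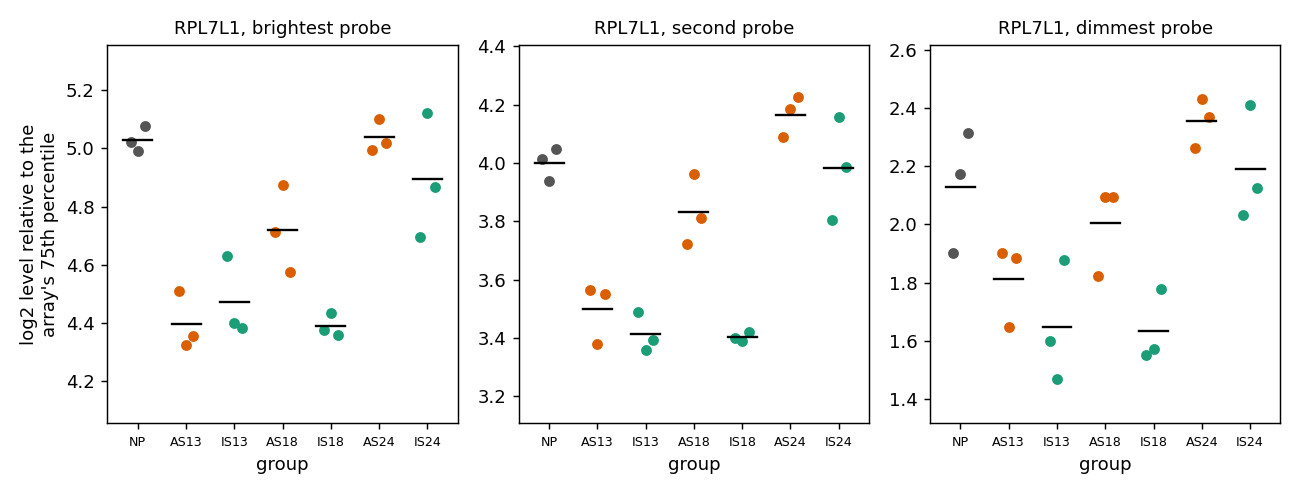
Log2 level of the 3 probes of RPL7L1 (panels, each with an axis of equal length) on every array by group; bars are group means of 3 arrays. In each panel AS13, IS13 and IS18 are low and AS24 is high; for the brightest probe NP is at 5.03 and AS24 at 5.04.

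Other members with large differences on day 13 missed the test. RPS15, a small-subunit protein near the decoding site, was at 8.11, 8.06 and 8.45 in NP, at 7.63, 7.35 and 7.57 in AS13, and at 7.92, 7.31 and 7.38 in IS13. Both pregnant groups lay below NP without overlap. Its log2 differences were -0.69 ± 0.23 at attachment sites (SE; limma, adjusted p = 0.107) and -0.67 ± 0.23 at inter-sites (limma, adjusted p = 0.151). RPSA, the small-subunit protein that is also known as the laminin receptor precursor, was at 7.05, 7.07 and 7.27 in NP, at 6.66, 6.60 and 6.69 in AS13, and at 6.66, 6.31 and 6.48 in IS13. Here too both pregnant groups lay wholly below NP. The differences were -0.48 ± 0.16 at attachment sites (limma, adjusted p = 0.103) and -0.65 ± 0.16 at inter-sites (limma, adjusted p = 0.0634). RPSA passed at inter-sites without IS13 replicate 1 (log2 difference -0.74; limma, adjusted p = 0.0415).

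At inter-sites of day 13, 27 of 32 members had a lower mean than in NP, with a median of -0.23 against 0.06 over all probes. By limma 0 members passed, against 0.449% of all probes; 7 members (21.9%) stood at an unadjusted p under 0.05, and 17.6% of all probes. Groups did not overlap for 14 members (43.8%), 13 of them lower, against 22.4% of all probes. Both day 13 comparisons use the same 3 NP arrays, so their likeness is no independent support. Without NP replicate 3, the median was -0.17 at attachment sites and -0.15 at inter-sites. Without IS13 replicate 1 it was -0.31 at inter-sites. With quantile normalization it was -0.07 at attachment sites, with 19 of 32 members lower, and -0.08 at inter-sites, with 22 of 32 lower.

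RPS4X and RPL14 ran the other way at attachment sites. RPS4X was at 7.15, 6.96 and 7.61 in NP and at 7.45, 7.90 and 7.79 in AS13, which overlap, and the log2 difference was 0.47 ± 0.26 (SE; limma, adjusted p = 0.325). RPL14 was at 7.08, 7.09 and 7.72 in NP and at 7.44, 7.52 and 8.05 in AS13, with a difference of 0.37 ± 0.24 (limma, adjusted p = 0.403). In both genes NP replicate 3 was the highest of the non-pregnant arrays. At inter-sites their differences were 0.03 and 0.01.

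**Figure D4:**
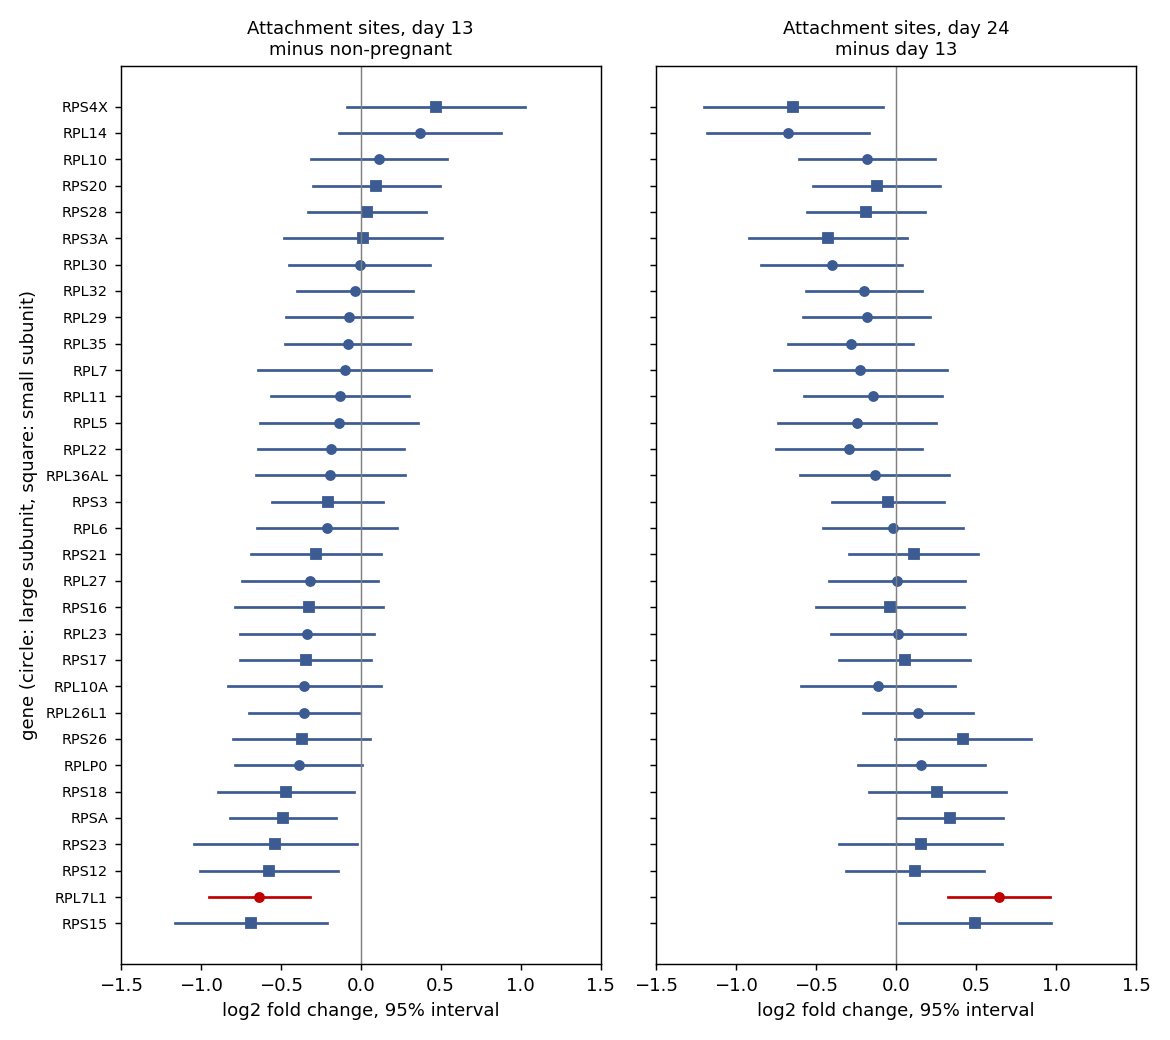
Log2 fold change with its 95% interval from limma for the 32 members (circles large subunit, squares small subunit), AS13 minus NP on the left and AS24 minus AS13 on the right, in the order of the left panel; red marks an adjusted p under 0.05. RPL7L1 is the red gene in each panel, at -0.63 and 0.64, and RPS4X and RPL14 lie at the opposite ends from it; both panels use the same 3 AS13 arrays.

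The second question is how attachment sites change from day 13 to day 24. Over the whole interval 15.7% of all probes passed the test, and 1 of the 32 members did (3.12%), RPL7L1. At an unadjusted p under 0.05 stood 5 members (15.6%), and 30.5% of all probes. Groups did not overlap for 10 members (31.2%), 7 lower and 3 higher, against 44.5% of all probes. The members' median log2 difference was -0.08, and 19 of 32 were lower on day 24. This comparison had the most changed probes of the 11. With this scaling the members' shares lay below those of all probes. With quantile normalization and in the authors' deposited table, the members' share that passed the test lay above that of all probes. Among the 430 other probes read from the low-gain scan, 12.8% passed, and 0 of the 29 members read from it did, with 4 of them at an unadjusted p under 0.05.

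RPL7L1 was at 5.0, 5.10 and 5.02 on AS24, all above its 3 AS13 values. Its log2 change from day 13 was 0.64 ± 0.15 (SE), or 1.56-fold (95% interval 0.32 to 0.96; limma, adjusted p = 0.00992). On AS18 it was at 4.71, 4.87 and 4.58, between both days and without overlap with either. Neither step passed on its own: the change was 0.33 ± 0.15 from day 13 to 18 (limma, adjusted p = 0.225) and 0.32 ± 0.15 from day 18 to 24 (limma, adjusted p = 0.216). The call from day 13 to 24 held in 34 of 35 other settings. Among these are the 21 fits that leave out 1 array (limma, adjusted p from 0.00802 to 0.0461). Where that array is of neither AS13 nor AS24, the log2 change stays the same, and only the estimate of spread and the adjustment vary. It was lost with normexp background correction (log2 change 0.37; limma, adjusted p = 0.488).

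RPL14 and RPS4X were lower on the later days at attachment sites. RPL14 was at 6.69, 7.29 and 7.05 on AS18 and at 6.88, 7.03 and 7.06 on AS24, all below the lowest AS13 value of 7.44. Its log2 difference was -0.66 ± 0.24 from day 13 to 18 (SE; limma, adjusted p = 0.131) and -0.68 ± 0.24 from day 13 to 24 (limma, adjusted p = 0.0647). RPS4X was at 6.40, 7.32 and 7.0 on AS18 and at 6.79, 7.19 and 7.24 on AS24, again all below the lowest AS13 value of 7.45. It had the largest difference of any member in any comparison, -0.81 ± 0.26 from day 13 to 18 (limma, adjusted p = 0.102), and -0.64 ± 0.26 from day 13 to 24 (limma, adjusted p = 0.109). With quantile normalization 7 members passed from day 13 to 24: RPL7L1 higher, and RPL14 (-0.89), RPS4X (-0.84), RPS3A (-0.65), RPL30 (-0.62), RPL35 (-0.55) and RPL22 (-0.49) lower. In the authors' deposited table, fitted in the same way, those 7 genes passed too. That table gave nearly the same values as quantile normalization (RPL14 at -0.89 and RPS4X at -0.84 in each), so it is no separate support. In either fit 15.8% of all probes passed, a lower share than that of the members. The members' median was -0.29 in the deposited table and -0.28 with quantile normalization.

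Between adjacent days at attachment sites, 0 members passed from day 13 to 18, against 1.79% of all probes, and 0 from day 18 to 24, against 5.64% of all probes. At an unadjusted p under 0.05 limma put 3 members (9.38%) from day 13 to 18, namely RPS4X, RPL14 and RPL7L1, and 21.3% of all probes; from day 18 to 24 it put 0, and 23.3% of all probes. The members' medians were 0.04 and -0.07. From day 18 to 24 the extremes were RPL23 (-0.32) and RPS26 (0.35), and all 32 intervals lay within a doubling or halving. AS18 replicate 1 was low for most members and AS18 replicate 2 was high for all 32, so this group was the widest of the 7.

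At inter-sites 0 members passed from day 13 to 18, against 0.00665% of all probes, and limma put 1 member (3.12%) at an unadjusted p under 0.05, RPS26, and 5.50% of all probes. The median was -0.10, and -0.03 without IS13 replicate 1. From day 18 to 24 again 0 passed, against 0.143%; 28 of 32 were higher on day 24, and the median was 0.18 against 0.03 over all probes. At an unadjusted p under 0.05 stood 5 members (15.6%), and 14.1% of all probes; 7 members (21.9%) had groups that did not overlap, all higher on day 24, against 18% of all probes. Without IS24 replicate 3 the median was 0.02. From day 13 to 24, limma called 0 members, against 0.246% of all probes, and 3 stood at an unadjusted p under 0.05: RPSA, RPL7L1 and RPS15. Their log2 differences were 0.51, 0.42 and 0.54, and the median of all members was 0.10 against -0.04 over all probes, of which 13.9% stood at an unadjusted p under 0.05. The members' median was -0.07 without IS24 replicate 3, with 21 of 32 lower on day 24, 0.18 without IS13 replicate 1 and 0.00 without both. Without both, RPSA, RPL7L1 and RPS15 were at 0.54, 0.52 and 0.60.

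RPS26, a small-subunit protein close to the path of the messenger RNA, had the largest difference at inter-sites. It was at 7.86, 7.65 and 7.80 on IS13, at 7.40, 7.24 and 7.22 on IS18, and at 7.85, 7.76 and 8.26 on IS24. The IS18 arrays lay below all arrays of both other days. The log2 difference was -0.48 ± 0.20 from day 13 to 18 (SE; limma, adjusted p = 0.876) and 0.67 ± 0.20 from day 18 to 24 (limma, adjusted p = 0.148). Without IS24 replicate 3 the latter was 0.52 ± 0.22 (limma, adjusted p = 0.371). RPL7L1 on the same arrays was at 4.38, 4.44 and 4.36 on IS18 and at 4.69, 5.12 and 4.87 on IS24, a difference of 0.51 ± 0.15 (limma, adjusted p = 0.146), and 0.52 ± 0.17 without IS24 replicate 3 (limma, adjusted p = 0.24).

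**Figure D5:**
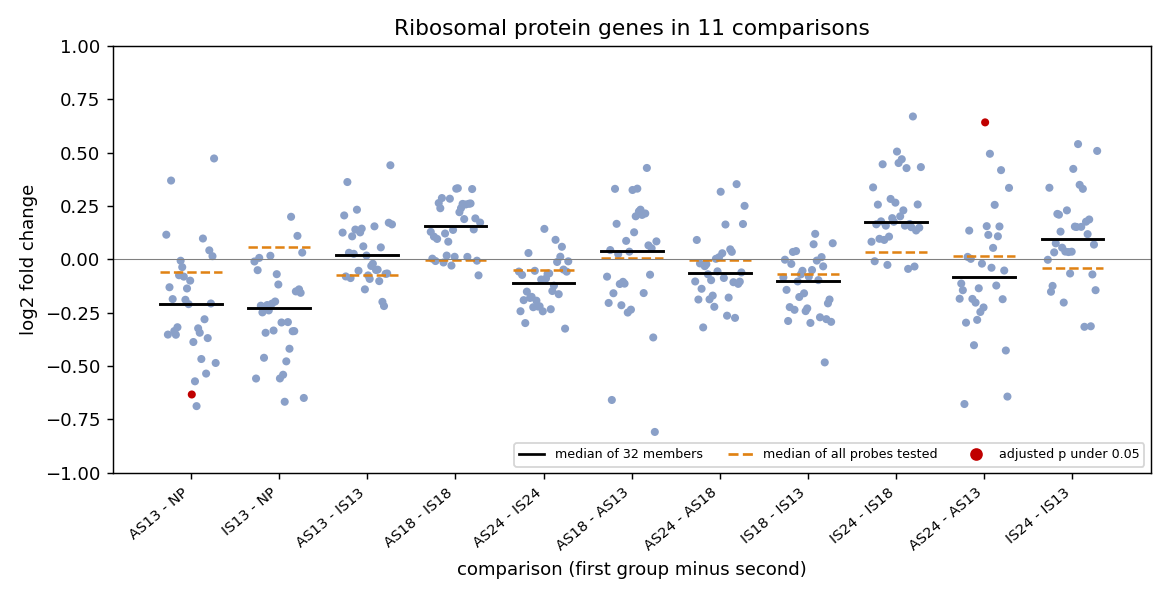
Log2 fold change of each of the 32 members (dots, in alphabetical order from left to right) in 11 comparisons, first group minus second, with the median of the members (black line) and of all probes tested (dashed). Members lie below 0 in both comparisons with NP (medians -0.21 and -0.23) and above it from IS18 to IS24 (0.18), and the 2 red dots, at an adjusted p under 0.05, are RPL7L1.

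The third question is whether attachment sites differ from the inter-sites of the same day. By limma 0 members passed on day 13, against 0% of all probes, 0 on day 18, against 0%, and 0 on day 24, against 0.279%. At an unadjusted p under 0.05 stood 0, 1 and 0 members on the 3 days, and 2445, 1412 and 2412 probes in all. The members' medians were 0.02, 0.16 and -0.11, and on day 24, 27 of 32 were lower at attachment sites. Without IS13 replicate 1 the day 13 median was 0.12, and without IS24 replicate 3 the day 24 median was 0.04. In each of these comparisons the 95% intervals of all 32 members lay within a doubling or halving: they ran from -0.71 to 0.998 on day 13, from -0.63 to 0.77 on day 18 and from -0.82 to 0.50 on day 24. The largest site differences were those of RPS4X on day 13 (0.44), RPLP0 on day 18 (0.33) and RPS3A on day 24 (-0.32).

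Whether a change between days differed between the site types was tested as an interaction. For day 13 to 18, limma called 0 members, against 0% of all probes, and 0 stood at an unadjusted p under 0.05. The widest values were -0.52 for RPS4X and 0.55 for RPS26, and the 95% intervals ran from -1.30 to 1.18. The members' median was 0.14, against 0.08 over all probes, and 0.07 without IS13 replicate 1. For day 18 to 24 it called 0 members, against 0.00997% of all probes, and again 0 stood at an unadjusted p under 0.05. With all arrays, 3.21% of all probes stood at that p. There, 30 of 32 members had a negative value, with a median of -0.26, against -0.05 over all probes, of which 45.6% were positive. Without IS24 replicate 3 the median was -0.13, with 26 of 32 negative, against -0.02 over all probes, and 0 members were called or stood at an unadjusted p under 0.05. With all arrays the 95% intervals ran from -1.17 to 0.81.

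By role, the stalk was represented by RPLP0, the base on which the acidic stalk proteins sit. It was at 8.49, 8.62 and 8.58 in NP and at 8.13, 8.25 and 8.16 in AS13, and NP lay above without overlap. The difference was -0.39 ± 0.19 (SE; limma, adjusted p = 0.26). At inter-sites it was lowest on day 18 (8.07, 7.94 and 7.90) and reached 8.04, 8.45 and 8.78 on day 24, the widest group of the 7 for this gene.

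Of the large-subunit proteins that bind the p53 regulator MDM2 when ribosome assembly is disturbed, RPL5, RPL11 and RPL23 were measured. RPL5 was at 8.52 ± 0.16 (SD, n = 3) in NP and 8.39 ± 0.11 in AS13, and RPL11 at 8.42 ± 0.10 and 8.29 ± 0.06. RPL23 was at 7.86, 7.81 and 7.67 in NP and at 7.39, 7.42 and 7.52 in AS13, which did not overlap. Its difference was -0.34 ± 0.20 (SE; limma, adjusted p = 0.356), and those of RPL5 and RPL11 were -0.14 and -0.13. Their 95% intervals all held 0.

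RPS3, which also has a part in DNA repair, had small differences: its group means ran from 8.50 ± 0.07 (SD, n = 3) in IS18 to 8.85 ± 0.08 in NP. RPS20, among the least bound to the common course, was highest in IS13 (9.16, 9.42 and 9.59) and lowest in IS24 (8.70, 9.19 and 9.34), and these groups overlap. The paralog RPL26L1, a near copy of RPL26, was at 3.83, 3.75 and 3.72 in NP and at 3.66, 3.27 and 3.31 in AS13. Its groups were apart, with a log2 difference of -0.35 ± 0.16 (SE; limma, adjusted p = 0.234). At inter-sites of day 13 it was at 3.45, 3.18 and 3.29, a difference of -0.46 ± 0.16 (limma, adjusted p = 0.165).

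Several probes measured most members, which allows a check within the array. Of the 144 other probes of 29 genes, 110 correlated with the chosen probe of the gene at r over 0.8 over 21 arrays, with a median of 0.92. All 3 probes of RPL7L1 passed the test from AS13 to AS24, with log2 changes of 0.64, 0.67 and 0.54. From NP to AS13 the chosen probe alone passed; the other two were at -0.50 (limma, adjusted p = 0.0698) and -0.32 (limma, adjusted p = 0.312). A probe of RPS12 that was not chosen passed from NP to AS13 (-0.76; limma, adjusted p = 0.0497), while the chosen probe was at -0.57 (limma, adjusted p = 0.137). The 13 other probes of RPS4X all fell on the same side from AS13 to AS18, between -1.06 and -0.64, and did not pass. Ribosomal protein genes have many processed copies in mammalian genomes, so a probe may also read a near-identical copy, and the probes of 1 gene are not replicates.

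Genes outside the ribosome that serve the same machine were taken from lists of known genes. Of 4 measured genes of ribosome assembly and its control, 3 fell at AS13 relative to NP: DKC1, a pseudouridine synthase of ribosomal RNA (log2 change -1.04 ± 0.23, SE; limma, adjusted p = 0.0363), BYSL, needed for the small subunit (-0.90 ± 0.21; adjusted p = 0.0433), and MYC, the transcription factor that drives ribosome production (-2.28 ± 0.54; adjusted p = 0.0427). The fourth, NIP7, fell at IS13 (-0.94 ± 0.18, limma, adjusted p = 0.0405). At the other site type each gene was also lower than in NP without passing. At IS13, DKC1 was at -1.06, BYSL at -0.84 and MYC at -1.55 (limma, adjusted p = 0.0517, 0.0728 and 0.16). At AS13, NIP7 was at -0.70 (limma, adjusted p = 0.0602). For none of the 4 was AS13 against IS13 called. BYSL rose from AS13 to AS24 (1.02 ± 0.21; limma, adjusted p = 0.00517). MYC was at 2.20, 2.0 and 2.64 in NP and at 0.37, -0.17 and -0.22 in AS13. In IS13 it was at 2.25, 0.06 and -0.12, with replicate 1 at the level of NP.

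Of 7 translation factors, EIF4A1, the helicase that opens messenger RNA for the small subunit, fell at AS13 (-1.09 ± 0.23, SE, limma, adjusted p = 0.0291). From AS13 to AS24 EIF4A1 rose (1.21 ± 0.23, limma, adjusted p = 0.00273). At IS13 EIF4A1 was at -1.05 relative to NP (limma, adjusted p = 0.0514). Its close relative EIF4A2 fell from AS13 to AS24 (-0.86 ± 0.19; limma, adjusted p = 0.00764), and EIF4E2, a cap-binding protein, rose (0.73 ± 0.21; adjusted p = 0.0289). VARS, which loads valine onto its tRNA, was the measured tRNA ligase. It fell at AS13 (-1.36 ± 0.24; limma, adjusted p = 0.0175) and IS13 (-1.29 ± 0.24; adjusted p = 0.0306), and rose to AS24 from AS13 (1.28 ± 0.24; adjusted p = 0.00267) and from AS18 (0.91 ± 0.24; adjusted p = 0.0339). How often each call held varied. Across 33 other settings BYSL passed at AS13 in 13, MYC in 15, DKC1 in 20 and EIF4A1 in 22, and NIP7 passed at IS13 in 16. VARS passed at AS13 in 26, at IS13 in 20, from AS18 to AS24 in 24 and from AS13 to AS24 in all 33. From AS13 to AS24, EIF4A1, EIF4A2 and BYSL each passed in 32 and EIF4E2 in 26. The direction was the same in all 33 for each of these. Without NP replicate 3, the calls of DKC1, BYSL, MYC and EIF4A1 at AS13 were lost (limma, adjusted p from 0.0532 to 0.0788) and so was that of NIP7 at IS13 (-0.91; limma, adjusted p = 0.051), while VARS passed at both site types. Without IS13 replicate 1, NIP7 was at -1.02 and VARS at -1.53 in IS13, and both passed.

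Messenger RNAs with the same 5′ tract as the members, and proteins of the mitochondrial ribosome, gave no call. Of 4 measured genes of the first kind (RACK1, TPT1, EEF1A1 and HNRNPA1) limma called 0 in any of the 11 comparisons. Of the 44 pairs of a gene and a comparison, 4 stood at an unadjusted p under 0.05. The share of all probes at that p ran from 4.69% to 30.5% over the 11 comparisons. RACK1, a signalling scaffold on the small subunit, was at -0.52 ± 0.23 from NP to AS13 (SE; limma, adjusted p = 0.216). Of 3 mitochondrial ribosomal protein genes limma called 0, with 7 of 33 such pairs at an unadjusted p under 0.05. MRPL2 was at -0.61, MRPL52 at -0.50 and MRPS18B at 0.23 from NP to AS13. From NP to IS13 these genes were at -0.78, -0.70 and 0.05. The kinase AKT1, upstream of S6 kinase, was at -0.17 from NP to AS13.

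The named genes outside the members whose levels most followed the median of the members over the 21 arrays were the matrix protease MMP9 (r = 0.87), the splicing protein SNRPE (0.87), ARL3 (0.85), the histone H3F3A (0.85) and FGD1 (0.84). The pattern of RPL7L1 was most like that of the DNA repair gene ERCC1 (r = 0.92), then of PGK1, PPIA, HNRNPAB and NME2 (0.91 to 0.90). These are descriptions over arrays that share depth of signal and scaling.

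Markers of other cell types and states were set beside RPL7L1. The median of 6 measured cell-cycle genes, relative to their own means, was -1.16, -2.12 and -0.62 on AS13 and 1.59, 1.74 and 2.25 on AS24, and it correlated with RPL7L1 at r = 0.76 over 21 arrays. On NP it was -0.50, 0.11 and 3.14 while RPL7L1 was at 5.02, 4.99 and 5.08. The 2 measured genes of 8 listed for fibroblasts (DCN and THY1) had medians of -0.53, -0.63 and -1.33 on AS13 and 1.33, 1.92 and 1.91 on AS24 (r = 0.68). Most of this came from THY1, at -2.86, -2.72 and -4.41 on AS13 and at 0.46, 1.54 and 1.85 on AS24. DCN was at 7.63, 7.29 and 7.57 on AS13 and at 8.03, 8.12 and 7.80 on AS24. The embryonic globin HBE1, the measured gene of 6 red cell markers, was at -4.58 to -2.30 relative to its mean on AS13 and at 5.54 to 7.61 on AS24. The part of these cells in the change of RPL7L1 from AS13 to AS24 was not tested. The 4 measured smooth muscle genes had medians of 3.12 and 2.99 on NP replicates 1 and 2 and of -2.04 on replicate 3, among which RPL7L1 spanned 4.99 to 5.08. Their medians were -1.94, 2.23 and -1.48 on AS13 and -1.84, -2.02 and -1.35 on IS13. The part of smooth muscle in the fall of RPL7L1 was not tested. The list of endometrium and steroid receptor genes (PGR, ESR1 and MSX1) had medians of 0.996 to 1.47 on NP and of -0.44 to 0.80 on both day 13 site types. It correlated with the members' median at r = 0.59. MSX1 did not share this course. Its levels were 5.03, 5.14 and 6.06 on NP, 5.45, 5.78 and 6.07 on AS13, and 5.86, 5.18 and 5.71 on IS13. The part of this list was not tested. The 3 measured immediate early and heat shock genes (FOS, JUN and HSP90AA1), listed for the handling of tissue, had medians of 0.46, 0.17 and 0.18 on NP, -0.18, -0.30 and -0.24 on AS13, and -0.37, -0.23 and -0.11 on IS13. By this median all 3 NP arrays lay above all 6 pregnant arrays of day 13, as for RPL7L1, but each of the 3 genes alone overlapped. FOS was at -2.28 on NP replicate 1 and -1.07 on IS13 replicate 3. JUN was at 6.66 on NP replicate 3 and 6.78 on AS13 replicate 2. HSP90AA1 was at 6.35 on NP replicate 3 and 6.49 on IS13 replicate 1. This list correlated with RPL7L1 at r = 0.46 over 21 arrays (0.19 with the members' median). Its part in the fall of RPL7L1 was not tested. Of the 6 epithelial markers measured, which define the lining of the endometrium, the median was -0.94, -0.60 and 0.18 on NP and 0.75, 0.20 and 0.42 on AS13. The lists for endothelium, T and NK lymphocytes, macrophages and the conceptus correlated with RPL7L1 at r = 0.11, -0.05, 0.15 and 0.42. Of the 4 measured conceptus genes, GATA3 was at 0.65, -0.004 and -0.22 on AS13 and at 3.08, 4.22 and 4.24 on AS24. GATA2, IFNG and HAND1 overlapped between these groups. The part of conceptus cells in the rise of RPL7L1 was not tested.

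The arrays lay on 6 slides, 5 of which held 4 arrays of mixed groups and 1 a single array, which allows comparisons within a slide. The single array was IS13 replicate 3, which was also the only array scanned on another day. With slide as a block it adds nothing to the estimate for IS13. On slide 1 the log2 difference of RPL7L1 was -0.48 for AS13 minus NP and 0.49 for AS24 minus AS13. On slide 3 it was at -0.72 in AS13 relative to NP, and on slide 4 at 0.78 in AS24 relative to AS13, each with 1 array against 1. The members' median for AS13 minus NP was -0.21 on slide 1 and -0.26 on slide 3. For IS13 minus NP it was -0.55 on slide 3 and -0.10 on slide 6. For IS24 minus IS18 it was 0.28 on slide 4 and -0.09 on slide 6, so that this direction did not hold within slides.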

How the data were processed

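RNA was labelled with Cy3 from 0.5 µg by an Agilent low-input kit and read on 1-colour arrays, per the labels' protocols. Spot intensity was made with Agilent Feature Extraction 10.7.3.1, per the file headers (10.7 per the submitters' processing notes), which subtracted background and detrended each array; no step between arrays is recorded. Flags for background, saturation, outliers and the low-gain scan are 0 or 1 as deposited (other values). The authors' deposited table of log2 values served as an alternative; its software was not given in the sources used here.

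Control and outlier spots were left out and repeated spots averaged. Genes were named through RefSeq accessions without version (5461 of 5779 probes matched). From the log2 of the processed signal each array's 75th percentile was subtracted. A probe was tested where all 3 arrays of any group had it well above background. A limma model (3.58.1) of 7 group means was fitted to the 21 arrays (R 4.3.3, 14 residual degrees of freedom), with Benjamini-Hochberg adjustment over 30094 probes within each comparison; calls are at an adjusted p under 0.05. Between 62.3% and 77.1% of probes were above background on an array; the number of arrays limits the precision.

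Named members are those called, the 3 widest and 3 narrowest by group means, the 3 most and least correlated with the others, and the role groups; others named from values are the extremes of a comparison. The other genes come from fixed lists, by call, and the 5 most alike. Members, lists and tests were chosen with earlier results of these data known. The fit was tested on simulated data. Normexp used median spot and background intensity, as no mean spot intensity was used here. No sequences are printed, and 1 gene of the fixed lists is not reported here.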

Additional observations from a re-analysis of the deposited data

How the results depend on the processing

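Each count and median was recomputed in 36 other settings: quantile normalization, scaling on the median of bright probes, normexp, the authors' deposited table, 2 other filters, slide as a fixed or random block, a replicate block, on-off states as a random block (10 sets of arrays that match at 29 probes whose on or off state differs between arrays of 1 group; correlation 0.52), the second probe or the mean over probes, and without 1 or 2 libraries; 2 were chosen after seeing the data, the members' own median as the scale and the 29 low-gain members alone. The count of 1 for AS13 minus NP was 0 with quantile normalization, bright-probe scaling, normexp, the authors' table, no filter, slide as a block, on-off states as a block, the members' median, the low-gain members, the mean over probes and the second probe, and 0 to 1 without 1 array. There the log2 change of RPL7L1 was -0.63, -0.59, -0.47, -0.63, -0.63, -0.67, -0.68 and -0.42 in the first 8, and -0.48 and -0.50 with the mean and second probe; it was -0.69 to -0.60 without 1 array. For AS24 minus AS13 the count of 1 was 7 with quantile normalization and the authors' table, 0 with normexp (RPL7L1 at 0.37) and with the low-gain members, and 2 with the replicate block and with the members' median; it was 1 to 2 without 1 array. For AS18 minus AS13, 1 member, RPS4X, passed with quantile normalization and the authors' table. For IS13 minus NP, 1 member, RPSA, passed without IS13 replicate 1 and IS24 replicate 3 together, and 0 to 1 without 1 array (1 without IS13 replicate 1 or AS18 replicate 2). For IS24 minus IS13, 1 member, RPSA, passed with on-off states as a block. The other 6 counts and both interactions stayed at 0 in these settings. The cause was not tested. Correlations of same-numbered site deviations ran from -0.11 to 0.49, which cannot settle whether arrays of the same number share a sow. Replicate 3 of AS18 and IS18 (0.49) made up an on-off set of their own, as did replicate 3 of AS13 and IS13 (0.23). Whether these arrays share a sow was not tested, and the main fit takes all arrays as independent. The replicate block, which added RPL14 (log2 change -0.68, limma, adjusted p = 0.0304), changed no other call. Normexp moved the median of all probes by up to 0.30 and turned the members' median for IS18 minus IS13 to 0.20; the median for AS18 minus AS13 was negative in 7 of 36 settings, among them slide as a block (-0.18), quantile normalization (-0.12) and the authors' table (-0.12), and from -0.11 to -0.01 without AS18 replicate 2 or AS13 replicate 1 and with the mean over probes or the second probe. Slide as a block turned AS18 minus IS18 to -0.05, and the members' own median turned those against NP to 0.01 and 0.02. The medians of the other comparisons took the other sign in 1 to 4 settings each. The median against NP was negative in the other 35 settings at each site type.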
